A study of Mus musculus with 6 samples.

Results

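The collagen, laminin and integrin genes of mouse hippocampus are described here across 6 arrays, 3 from Glud1 transgenic (Tg) and 3 from wild-type (wt) male mice. All mice were 9 months old, of the C57BL/6 background and untreated, and 1 hippocampal RNA sample per mouse was read on an Affymetrix Mouse Genome array. The transgene carries Glud1, the mitochondrial enzyme glutamate dehydrogenase, behind the promoter of neuron-specific enolase, so it is driven in neurons only, whereas much of the matrix described here is made by vessel, meningeal and glial cells. Members were taken by gene symbol, as every probeset annotated to 1 gene whose symbol begins like a collagen chain (Col, a number, a and a number), a laminin chain (Lama, Lamb or Lamc and a number) or an integrin (Itga, Itgb or Itgl). This gave 81 of 18193 genes, of which 42 were collagens, 10 were laminins and 29 were integrin genes, on 166 probesets. Each gene is given at its brightest probeset, the one with the highest mean signal over all 6 arrays. Of the 81 genes, 67 stood above the filter on low signals (35 collagens, 8 laminins and 24 integrin genes) and 14 stood below it. The filter left out the 31% of probesets with the lowest mean of log2(signal + 16).

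Collagens are trimeric proteins of the extracellular matrix. Fibrillar collagens build the fibres of the meninges and vessel walls, type IV collagen and the laminins build the basement membranes on which endothelial cells and astrocyte endfeet rest, type VI collagen forms microfibrils, and a few collagens stay in the plasma membrane and are shed from it. Integrins are receptors made of 1 alpha and 1 beta subunit that bind these proteins and couple them to the actin cytoskeleton through adaptors and kinases, and in the brain they act at vessels, in glia and at synapses.

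The deposited values are MAS5 signals, 1 per probeset and array, on a linear scale. A fold change here is the difference of Tg and wt means of log2(signal + 16), which understates the differences of dim genes, and it was tested with limma over 31076 probesets with Benjamini-Hochberg adjustment. Signals of different genes come from different probes and were not set against each other. Glud1 itself had signals of 5115.6, 5595.7 and 5560.8 in Tg mice, against 6383.3, 5647.3 and 5998.2 in wt mice at its brightest probeset, where every Tg array was below every wt array. At its further probeset it had 4639.5, 5256.2 and 5393.8 in Tg mice, against 5729.2, 5031.1 and 5470.3 in wt mice, and the groups overlapped. The sources used here do not say whether these probes read the transgene's message, so Glud1 checks no label and all directions rest on the labels. Kept probesets had a median signal between 309.6 and 318.9 on Tg arrays and between 297.3 and 305.4 on wt arrays. Actb control probesets, read at both ends of the message, had a 3′ over 5′ quotient between 1.64 and 1.69 on Tg arrays and between 1.7 and 1.95 on wt arrays. For the Gapdh control the groups overlapped, with quotients between 0.781 and 0.8 on Tg arrays and between 0.752 and 0.908 on wt arrays. The 18S ribosomal RNA control was between 975.5 and 3312.8 on Tg arrays and between 2286.5 and 13960 on wt arrays. In dissected tissue, fewer cells of a type and less RNA per cell cannot be told apart.

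No collagen, laminin or integrin gene passed an adjusted p of 0.05. limma called 0 of 31076 probesets in the whole comparison, where 3011 (9.69%) had an unadjusted p under 0.05, and the smallest adjusted p was 0.143 over all probesets, 0.251 among collagens and laminins and 0.290 among integrin genes. Cyber-T, a test named in the study's methods, called 65 probesets and 25 of 13851 genes (0.18%), and none of these genes was a member. At an unadjusted p under 0.05 there were 4 of 43 collagens and laminins (9.3%), beside 7.87% of all genes, and all 4 were lower in Tg mice, a direction that 4.97% of all genes took at this threshold. They were Col5a1, Col1a2, Col6a1 and Col23a1. Among integrin genes 2 of 24 (8.33%) had such a p, Itgav on the lower side and Itga10 on the higher side, where 2.9% of all genes stood. The shares of 9.3% and 8.33% are near the background of 7.87%. They depended on single arrays, since the count of collagens and laminins was 1 without Tg 1, 2 without wt 2 and 1 without wt 3, and that of integrin genes was 1 without Tg 1, 4 without Tg 2 and 1 without Tg 3.

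By size of difference, collagens leaned to lower values in Tg mice, whereas laminins were evenly split and no integrin gene reached the threshold on the lower side. A difference of at least 1.3-fold to the lower side was seen in 12 of 43 collagens and laminins (27.9%) and in 0 of 24 integrin genes, beside 8.27% of all genes, and these were 11 of 35 collagens (31.4%) and 1 of 8 laminins (12.5%). A difference of that size to the higher side was seen in 5 of 43 (11.6%) and in 5 of 24 (20.8%), beside 6.76% of all genes, with 4 of 35 collagens (11.4%) and 1 of 8 laminins (12.5%). Dimmer genes reach such differences more often: among genes with a mean signal from 50 to 500 the lower side held 14.8% and the higher side 12.3% of 6716 genes, against which 11 of 37 collagens and laminins (29.7%) and 0 of 17 integrin genes were on the lower side, and 5 of 37 (13.5%) and 5 of 17 (29.4%) on the higher side. The median log2 fold change was -0.22 over 35 collagens, -0.11 over 8 laminins and 0.14 over 24 integrin genes, beside -0.031 over all 13851 genes and -0.015 over the 6716 genes of the signal range above. A negative fold change was found for 22 of 35 collagens (62.9%), 5 of 8 laminins (62.5%) and 9 of 24 integrin genes (37.5%), beside 55.9% of all genes and 51.8% of those in that signal range. The median deviation of collagens and laminins from each gene's own mean was -0.18, -0.059 and -0.018 in Tg 1, Tg 2 and Tg 3, against 0.11, 0.13 and 0.17 in wt 1, wt 2 and wt 3. Every Tg array thus lay below every wt array in this median. The same order held on a smaller scale over all 13851 genes. Their medians were -0.017, 0.011 and -0.011 in Tg mice, against 0.016, 0.044 and 0.015 in wt mice. It did not hold over the 8 laminins alone, where wt 3 was the lowest array at -0.098. The median of the 43 genes was -0.12, and it was -0.32 without wt 1 and -0.19 without wt 2. For integrin genes the median was 0.24 without Tg 3, 0.054 without Tg 1 and 0.045 without wt 2, and it turned to -0.013 over the 14 that are left when the dimmest 50% of all probesets are taken out.

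**Figure D1:**
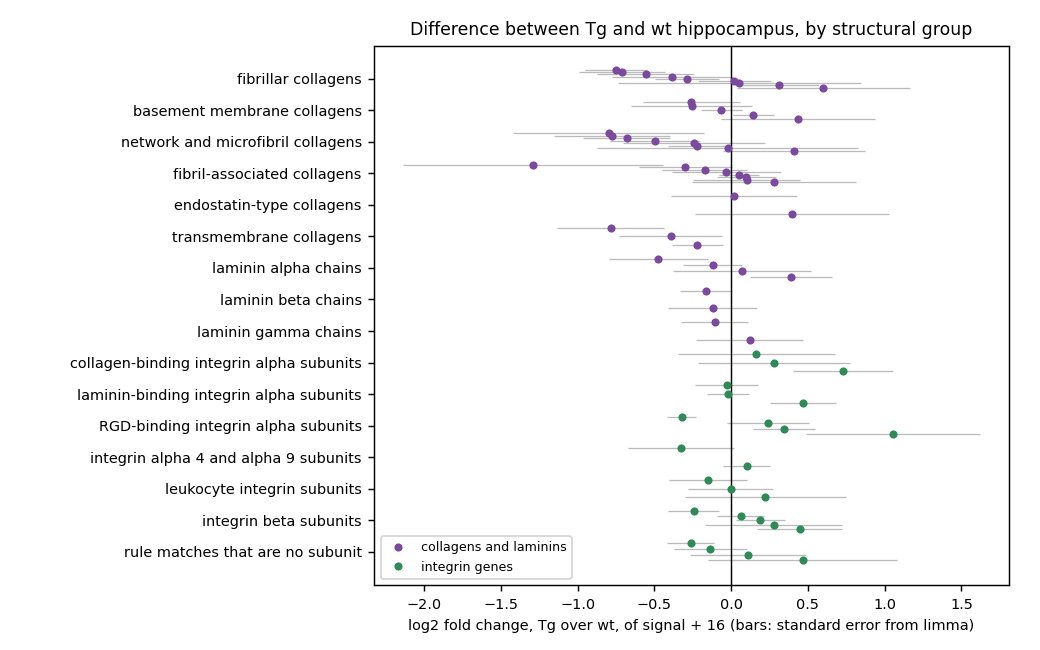
Log2 fold change of Tg over wt, on signal + 16, for each of 67 genes (points, with the standard error from limma), in 16 structural groups. Points of the network and microfibril collagens and of the transmembrane collagens lie mostly left of 0 and those of the collagen-binding integrin subunits lie right of it, with wide errors, and none passed an adjusted p of 0.05.

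**Figure D2:**
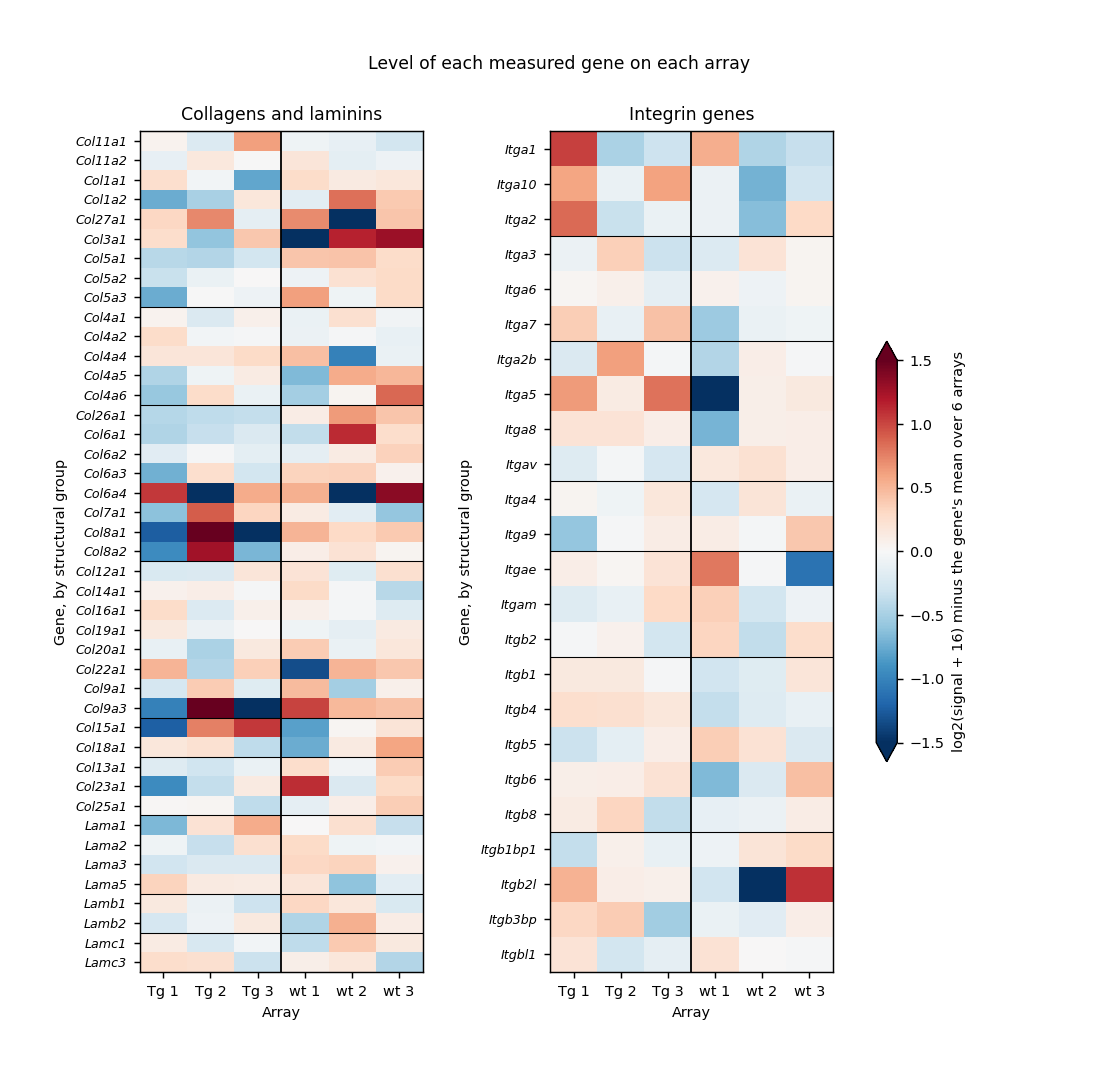
Level of each of 67 genes on each array, as log2(signal + 16) minus the gene's mean over 6 arrays, with Tg arrays left of wt arrays and lines between structural groups. Few genes separate the groups cleanly. Col5a1 and Lama3 are below their mean on all 3 Tg arrays, while Col8a1, Col8a2 and Col9a3 are well above it on Tg 2 and below it on Tg 1 and Tg 3.

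Among 9 fibrillar collagens above the filter, 5 had a negative and 4 a positive fold change, with a median of -0.29. Col5a1, a type V chain that starts the assembly of collagen fibrils and sets their width, was the member with the smallest p. Its signals were 161.9, 158.4 and 179.3 in Tg mice, against 300.1, 301.5 and 271.3 in wt mice. All Tg arrays were below all wt arrays, and the gap was wide beside the spread within each group (means ± SD of 3 arrays, 166.5 ± 11.2 for Tg and 291 ± 17 for wt). Such a gap comes with the choice of the smallest p, and 8.82% of all genes had all Tg arrays below all wt arrays. The log2 fold change of Col5a1 was -0.75 (SE 0.202, adjusted p = 0.251 with limma, 0.191 with Cyber-T), and the 2 kept probesets of the gene lay between -0.75 and -0.54. Its partner chains were on the same side, Col5a2 with 189, 223.8 and 242.1 in Tg mice, against 227.6, 285.4 and 298.3 in wt mice. Col5a3 had 72.1, 130.5 and 123.9 in Tg mice, against 210.5, 124.7 and 164 in wt mice. In both partner chains the groups overlapped, with log2 fold changes of -0.29 (SE 0.208, limma adjusted p = 0.685) and -0.56 (SE 0.315, limma adjusted p = 0.604).

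**Figure D3:**
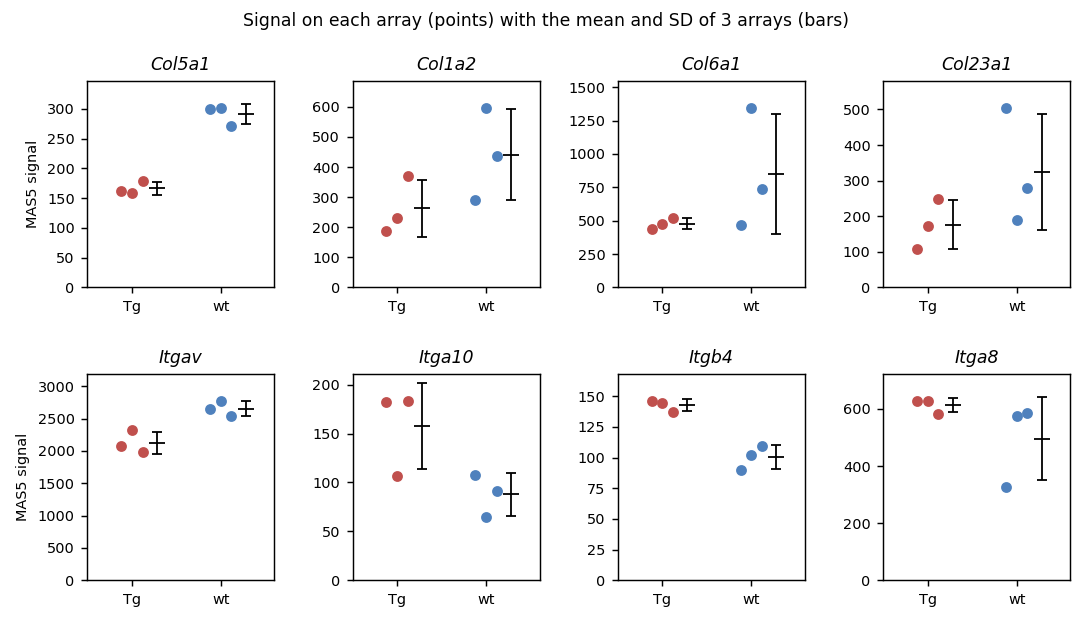
MAS5 signal of 4 collagens (top) and 4 integrin subunits (bottom) on each of 3 Tg and 3 wt arrays (points), with the mean and SD (bars) and axes that start at 0. At the brightest probeset, which is shown, Col5a1, Itgav and Itgb4 have 2 separate groups, whereas Col1a2, Col6a1, Col23a1, Itga10 and Itga8 overlap.

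The markers of the cortex next to the hippocampus were in sum lower on every Tg array than on every wt array, as was Col5a1. Their summed signal was 4881.5, 5706 and 5623 on Tg arrays, against 7161.1, 8370.2 and 7956.8 on wt arrays, with 6 of 7 measured markers lower in Tg mice (median log2 fold change -0.62). Dentate gyrus granule cell markers summed to 15420, 16887 and 16369 on Tg arrays and 12220, 12534 and 15534 on wt arrays, with 9 of 9 higher (median 0.21). Both lists were chosen with earlier results of these data known. The study counts Tshz2, Nts, Satb1 and Slc17a6 of the cortex list among its down-regulated genes. It counts Calb1, Dsp and Npnt of the dentate list among its up-regulated genes. The direction of the lists is therefore no independent result. What part the make-up of the dissected tissue had in the difference of Col5a1 was not tested.

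The type I chain Col1a2, the main fibre protein of meninges and vessel walls, had signals of 188.9, 229.9 and 370.7 in Tg mice, against 292.1, 596.1 and 435.8 in wt mice. The groups overlapped, since Tg 3 was above wt 1, and the log2 fold change was -0.71 (SE 0.281, adjusted p = 0.451 with limma). Col6a1, a chain of the type VI microfibrils, had 439.8, 474.7 and 522 in Tg mice, against 469.9, 1344.3 and 734.9 in wt mice, with wt 1 inside the Tg range and a log2 fold change of -0.68 (limma, SE 0.282, adjusted p = 0.466). It was -0.29 without wt 2, its highest array, and -1.03 without wt 1. Of the partner chains of Col6a1, Col6a2 was at -0.22 (SE 0.186) and Col6a3 at -0.49 (SE 0.295), and both overlapped between groups. Col3a1, the type III chain of vessel walls and meninges, was singled out after its values were seen. It had 150.2, 76.1 and 166.8 in Tg mice, against 8.1, 291.7 and 321.8 in wt mice. Without wt 1 its log2 fold change was -1.19, and with all arrays it was 0.053 (SE 0.790).

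Col1a2, Col3a1, Col6a1 and Col6a2 were higher in wt 2 and wt 3 than in wt 1, as were the sums of markers of meningeal fibroblasts and mural cells. Not all chains followed this order at their brightest probeset. In wt mice Col1a1 had 95, 84.8 and 87.7, Col6a3 had 196.9, 197.7 and 160.4, and Col5a1 had 300.1, 301.5 and 271.3. A dimmer kept probeset of Col1a1 did follow it, with 15.2, 187.9 and 96.4 in wt mice. The summed signal of 10 meningeal fibroblast markers was 4705.6, 8014.9 and 6885 in Tg mice, against 4902.9, 11472 and 11236 in wt mice, and 8 of the 10 had a negative fold change. The sum of 9 mural cell markers was 7315.6, 5793.6 and 8991.5 in Tg mice, against 6281.2, 11431 and 11693 in wt mice, with 8 of 9 negative. Within Tg mice the fibroblast sum was highest and the mural sum lowest in Tg 2, whereas Col1a2 and Col6a1 rose from Tg 1 to Tg 3. The fibroblast markers with the most signal in Tg 2 were Igf2 (1228.7, 2341.9 and 1340.9 in Tg mice) and Igfbp2 (863.4, 2561 and 887). Slc13a4 was also highest in Tg 2, and every other marker of that list was highest in Tg 3. No defining marker of either list was at 0, and the lowest single values were those of Crabp2 in the first list, at 8.4, 5.8 and 196.9 in Tg mice and 51.6, 404.3 and 288.3 in wt mice. Col4a5, a type IV chain also singled out after its values were seen, followed the same order within the wt mice (164.6, 221 and 252.4 in Tg mice, against 139.8, 347.5 and 332.3 in wt mice). Endothelial markers summed to 3509.7, 3040.7 and 4095.6 in Tg mice and 3619.7, 4160 and 3929.4 in wt mice, a narrower range. The part of the amount of meninges or vessel wall in the differences of Col1a2 and Col6a1 was not tested.

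**Figure D4:**
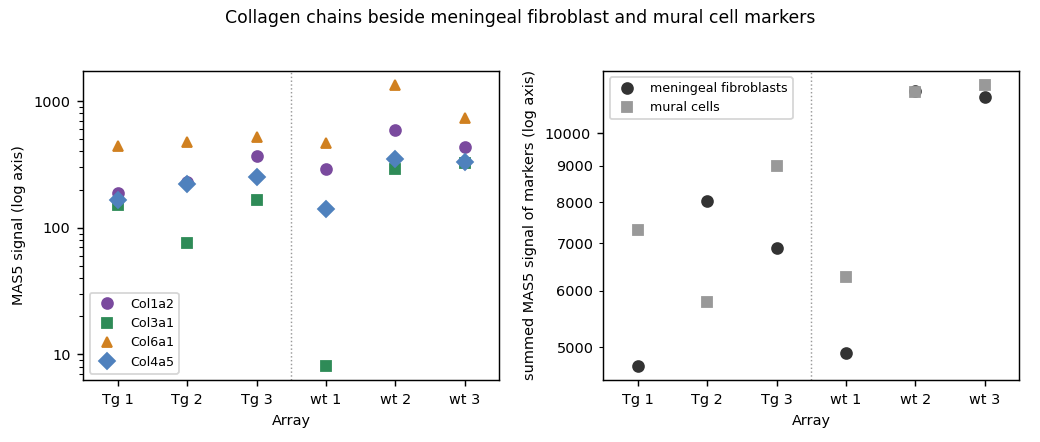
Left, MAS5 signal of Col1a2, Col3a1, Col6a1 and Col4a5 on each array, on a log axis. Right, summed signal of 10 meningeal fibroblast markers and 9 mural cell markers on the same arrays. In both panels wt 2 and wt 3 stand above wt 1 for each gene and each list.

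A few collagens had a pattern across arrays that did not follow the groups. Col8a1 and Col8a2 encode the chains of type VIII collagen, a short-chain collagen that forms hexagonal lattices under endothelia, and Col9a3 encodes a chain of the fibril-associated type IX. Col8a1 had signals of 63.7, 554.3 and 48.2 in Tg mice, against 251.6, 216.2 and 230.5 in wt mice. Col8a2 had 79.3, 421.8 and 97.6 in Tg mice, against 179.3, 195.9 and 172.5 in wt mice. Col9a3 had 100.8, 905.8 and 16 in Tg mice, against 459.1, 315 and 304.1 in wt mice. In all 3 genes, at these brightest probesets, the highest array was Tg 2 and the lowest ones were Tg 1 and Tg 3. The wt arrays lay in between, in a narrower range than the Tg arrays. Col8a1 and Col8a2 were singled out after their values were seen. The log2 fold changes were -0.80 (SE 0.622), -0.24 (SE 0.463) and -1.29 (SE 0.846) for Col8a1, Col8a2 and Col9a3, with limma adjusted p of 0.713, 0.895 and 0.650. These values depended on single Tg arrays. Col8a1 was at -1.80 without Tg 2, -0.38 without Tg 1 and -0.22 without Tg 3, and Col9a3 was at -2.59 without Tg 2 and -0.17 without Tg 3. Col8a2 was at -0.93 without Tg 2 and turned to 0.17 without Tg 1 and 0.043 without Tg 3. The other kept probeset of Col9a3 had 131.7, 642.9 and 55 in Tg mice, against 107.6, 151.4 and 190 in wt mice, at a log2 fold change of 0.23. That of Col8a1 had 60.9, 252.2 and 13.7 in Tg mice, against 214, 154.3 and 53.1 in wt mice, at -0.71. Tg 2 was highest in both, but Tg 1 was above wt 1 in Col9a3 and above wt 3 in Col8a1.

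The sums of markers of the choroid plexus, the secretory epithelium of the brain ventricles, were also highest in Tg 2 and lowest in Tg 1 and Tg 3. Their summed signal was 42100, 66808 and 4467.9 in Tg mice, against 54488, 52209 and 47914 in wt mice, most of it from Ttr. Without Ttr, the other 7 markers summed to 2020.4, 9169.7 and 552.7 in Tg mice, against 3666, 3469.2 and 3138.3 in wt mice. All 8 markers had a negative fold change (median -0.81), and 0 of 8 had an unadjusted limma p under 0.05. Folr1, a folate receptor of this epithelium, had 293.1, 1754.3 and 96.7 in Tg mice, against 807.3, 660.3 and 629.4 in wt mice. What part the amount of choroid plexus in the dissected tissue had in the values of Col8a1, Col8a2 and Col9a3 was not tested.

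**Figure D5:**
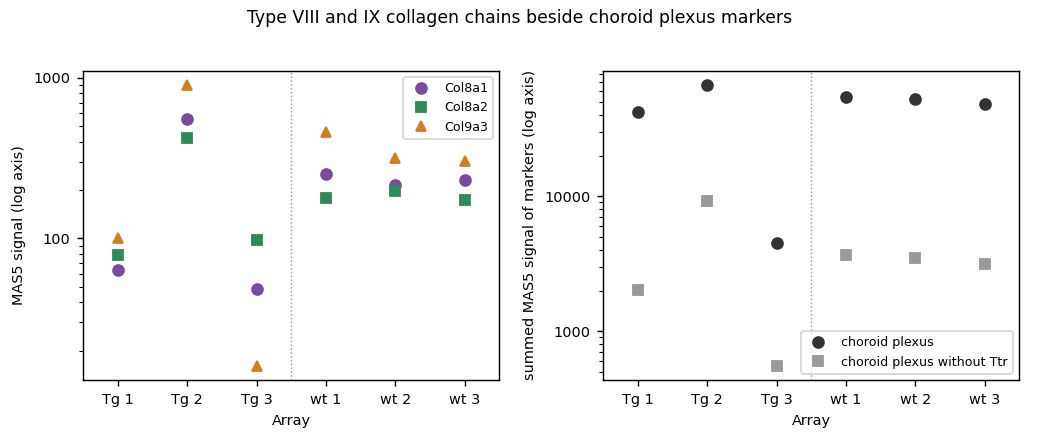
Left, MAS5 signal of Col8a1, Col8a2 and Col9a3 on each array, on a log axis. Right, summed signal of 8 choroid plexus markers and of 7 without Ttr on the same arrays. In both panels Tg 2 is highest, Tg 1 and Tg 3 are lowest, and the 3 wt arrays lie in between, in a narrower range than the Tg arrays.

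The promoters of the type VIII chains are shown because both chains were high in Tg 2 and low in Tg 1 and Tg 3. They are windows of 300 bases around the annotated RefSeq start, in the direction of transcription, from build GRCm38.p6, at chr16:57754688-57754987 on the minus strand for Col8a1 and at chr4:126286544-126286843 on the plus strand for Col8a2. Capitals mark GGGCGG, the GC box, or its other-strand form CCGCCC.
Col8a1: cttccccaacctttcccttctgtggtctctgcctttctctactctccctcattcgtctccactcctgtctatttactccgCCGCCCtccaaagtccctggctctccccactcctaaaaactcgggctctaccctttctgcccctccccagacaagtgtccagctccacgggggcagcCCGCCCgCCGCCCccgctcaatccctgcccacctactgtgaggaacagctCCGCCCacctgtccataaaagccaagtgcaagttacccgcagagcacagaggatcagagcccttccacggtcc
Col8a2: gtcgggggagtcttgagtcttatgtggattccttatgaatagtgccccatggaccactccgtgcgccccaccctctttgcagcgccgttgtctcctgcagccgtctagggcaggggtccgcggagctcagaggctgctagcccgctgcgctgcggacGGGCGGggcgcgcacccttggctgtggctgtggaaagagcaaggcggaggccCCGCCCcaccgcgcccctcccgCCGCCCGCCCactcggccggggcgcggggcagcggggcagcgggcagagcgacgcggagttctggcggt
Both windows hold 4 GC boxes, of which a pair overlaps in Col8a2, and neither holds CCAAT or TATAAA on either strand. Of 32851 promoters in the RefSeq table, 35.7% hold a GC box, 37.4% hold CCAAT or ATTGG and 13.6% hold TATAAA or TTTATA. A window was listed for 59 of the 81 members, of which 33 hold a GC box, 16 hold CCAAT and 5 hold TATAAA.

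Col26a1, counted here with the network and microfibril collagens, had 48.2, 50.6 and 51.7 in Tg mice, against 77.2, 118.8 and 99.8 in wt mice. All Tg arrays were thus below all wt arrays, at a log2 fold change of -0.78 (limma, SE 0.377, adjusted p = 0.540) and a level close to the filter. Of the 8 network and microfibril collagens above the filter, 7 had a negative fold change. Col5a1, Col26a1, Col13a1 and the laminin chain Lama3 were the 4 of 43 collagens and laminins (9.3%) whose Tg arrays were all below their wt arrays, beside 8.82% of all genes and 6.15% of those with a mean signal from 50 to 500. Col13a1 was singled out after its values were seen. None of the 43 was wholly above, beside 5.21% of all genes.

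Type IV collagen, the sheet-forming collagen of basement membranes, overlapped between groups in both of its main chains. Col4a1 had signals of 1195, 990.2 and 1217.3 in Tg mice, against 1074.6, 1372.6 and 1116.4 in wt mice (log2 fold change -0.064, SE 0.131, limma adjusted p = 0.903). Col4a2 had 874.2, 693.6 and 708 in Tg mice, against 674.2, 705.4 and 664.8 in wt mice (0.14, SE 0.134, limma adjusted p = 0.759). The groups overlapped in both, and another probeset of Col4a1 had a fold change of 0.19. The genes lie head to head on chromosome 8, and their start windows share 78 bases. The Col4a2 window, chr8:11312555-11312854 on the plus strand, is shown because it holds the annotated starts of both genes, with GC boxes and the CCAAT box in capitals.
Col4a2: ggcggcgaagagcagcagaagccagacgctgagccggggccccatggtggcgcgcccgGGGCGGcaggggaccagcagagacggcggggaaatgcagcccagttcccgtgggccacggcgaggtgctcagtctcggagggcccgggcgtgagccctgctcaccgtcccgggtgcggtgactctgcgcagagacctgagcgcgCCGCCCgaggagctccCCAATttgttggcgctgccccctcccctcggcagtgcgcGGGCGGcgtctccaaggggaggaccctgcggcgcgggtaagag
The window holds 3 GC boxes and 1 CCAAT box. Col15a1 and Col18a1, basement membrane collagens whose ends are cleaved to anti-angiogenic fragments such as endostatin, were dim. Col15a1 had 11.8, 93.5 and 118.9 in Tg mice, against 20.8, 49.9 and 58 in wt mice, and Col18a1 had a log2 fold change of 0.020 (SE 0.411) whose sign depended on the scaling.

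Laminins, the trimeric scaffold proteins that start basement membrane assembly, had fold changes on both sides of 0. Lamb1 and Lamc1, the beta and gamma chains of many laminins, had log2 fold changes of -0.16 (SE 0.172) and -0.11 (SE 0.219), with overlapping groups. Lama2, the alpha chain of muscle and brain vessels, had 369.3, 301.4 and 460.3 in Tg mice, against 477.3, 369.8 and 377.7 in wt mice. Lama5, the alpha chain of mature vessels and epithelia, had 214.5, 185.8 and 183.1 in Tg mice, against 191.6, 104.9 and 148.5 in wt mice (0.39, SE 0.266, limma adjusted p = 0.667). Another kept probeset of Lama5 was at -0.25. Lama3, best known from skin, had 71.9, 76.4 and 76.6 in Tg mice, against 117.3, 118.7 and 96.5 in wt mice (-0.48, SE 0.322, limma adjusted p = 0.664). The Lama3 groups did not overlap, while those of Lama5 overlapped through wt 1. Lamb2 and Lamc3 had log2 fold changes of -0.12 (SE 0.288) and 0.12 (SE 0.348). Another kept probeset of Lamc3 was at -0.79 (SE 0.446), and the 3 kept probesets of Lamb1 lay between -0.44 and 0.29.

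The transmembrane collagens above the filter, 3 of 3, had negative fold changes. Col23a1 had 109.2, 171.4 and 247.8 in Tg mice, against 504.1, 190.5 and 278 in wt mice, and its difference was largest against wt 1. Its log2 fold change was -0.78 (SE 0.348, adjusted p = 0.498 with limma), and its 3 kept probesets lay between -0.78 and -0.63. Without wt 1 it was -0.42 at the brightest probeset. Another kept probeset of Col23a1 had 58.8, 174.8 and 172 in Tg mice, against 178.9, 196.1 and 225.1 in wt mice. The remaining one had 68.5, 113.7 and 86.8 in Tg mice, against 128.5, 141.4 and 188.4 in wt mice. At both of these, all Tg arrays were below all wt arrays, and wt 1 was the lowest wt array. Col13a1, a membrane collagen best known at the neuromuscular junction, had 74.7, 67.7 and 80.5 in Tg mice, against 107.6, 83.6 and 118.7 in wt mice (-0.39, SE 0.336, limma adjusted p = 0.737). Col25a1, whose shed part is found in amyloid plaques, had 701.5, 712.4 and 531 in Tg mice, against 629.3, 748.8 and 900.8 in wt mice (-0.22, SE 0.166, limma adjusted p = 0.698), and another kept probeset of it was at 0.75. Of 8 fibril-associated collagens, 4 had a positive and 4 a negative fold change. Among them Col19a1, known in mouse to be made by hippocampal interneurons, had 882.2, 745.9 and 796.1 in Tg mice, against 754.5, 721.4 and 868.2 in wt mice (0.049, SE 0.130, limma adjusted p = 0.927).

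Of 24 integrin genes 9 had a negative fold change, and the one with the smallest p, Itgav, was among them. Itgav, the alpha V subunit that binds proteins with an Arg-Gly-Asp motif such as vitronectin and latent TGF-beta, had 2068.7, 2316.2 and 1986.2 in Tg mice, against 2650.6, 2772.3 and 2540.5 in wt mice. All Tg arrays were below all wt arrays (means ± SD of 3 arrays, 2124 ± 172 for Tg and 2654 ± 116 for wt), with a log2 fold change of -0.32 (SE 0.0949, limma adjusted p = 0.290, Cyber-T adjusted p = 0.248). The other 2 kept probesets of Itgav were far dimmer, and the 3 lay between -0.32 and 0.30. The summed signal of 7 astrocyte markers was 20925, 19513 and 20974 in Tg mice, against 20432, 24223 and 23087 in wt mice, with 6 of 7 negative (median log2 fold change -0.17) and 3 of 7 with all Tg arrays below all wt arrays. Of all genes, 55.9% had a negative fold change and 8.82% had all Tg arrays below all wt arrays. The part of astrocytes in the difference of Itgav was not tested. Itgb8, the beta subunit that pairs with alpha V in astrocytes, had 2433.4, 2797 and 1726 in Tg mice, against 2044.9, 2095.5 and 2408.3 in wt mice (0.062, SE 0.152, limma adjusted p = 0.920), and centring the arrays turned its sign. Itgb5, a further alpha V partner, had 720.9, 818.3 and 971.4 in Tg mice, against 1169.2, 1056.7 and 775.9 in wt mice (-0.24, SE 0.165, limma adjusted p = 0.664).

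The other 3 alpha subunits that bind this motif, Itga8, Itga5 and Itga2b, had positive fold changes. Itga8, a receptor for nephronectin and other matrix ligands, had 627.9, 627.8 and 583.9 in Tg mice, against 327.4, 576.2 and 584.5 in wt mice (0.34, SE 0.203, limma adjusted p = 0.620). Only wt 1 stood well below the other arrays, and without it the log2 fold change was 0.077. Itga5, which forms the main fibronectin receptor with beta 1, had 97.3, 63.7 and 112.7 in Tg mice, against 4.7, 61.9 and 64.8 in wt mice (1.05, SE 0.568, limma adjusted p = 0.585), again with wt 1 lowest. Without wt 1 the log2 fold change of Itga5 was 0.41, and its other kept probeset was at -0.28. Itga2b, the alpha subunit of the fibrinogen receptor of platelets, was singled out after its values were seen and had 175.8, 326.9 and 202.4 in Tg mice, against 148.6, 223.2 and 205.9 in wt mice (0.24, SE 0.269, limma adjusted p = 0.807). Without Tg 2, its highest array, it was at -0.0091. Another pair of alpha subunits, Itga4 and Itga9, recognizes other motifs. Itga4, which binds fibronectin and VCAM1, had 577.5, 538.6 and 635.4 in Tg mice, against 469.9, 645.8 and 524.3 in wt mice (0.10, SE 0.155, limma adjusted p = 0.866). The dimmer kept probesets of Itga4 were at 1.14 (SE 0.579) and 0.60 (SE 0.495). Itga9, the relative of Itga4, was at -0.33 (SE 0.343).

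Among collagen-binding subunits, 3 of 3 had positive fold changes. Itga10 had 182.2, 106.7 and 183.3 in Tg mice, against 107.7, 64.2 and 91.6 in wt mice, with Tg 2 just below wt 1 (0.73, SE 0.328, adjusted p = 0.507 with limma). Itga1 and Itga2 overlapped widely, and the sign of Itga1 changed with the probesets used. Among laminin-binding subunits, Itga7 had 399.2, 282.4 and 419.7 in Tg mice, against 205.1, 284.9 and 290.9 in wt mice (0.47, SE 0.215, adjusted p = 0.516 with limma). Itga6 and Itga3 were at -0.022 (SE 0.136) and -0.029 (SE 0.207).

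Of the beta subunits above the filter other than Itgb2, which was counted with the leukocyte integrins, 4 of 5 had a positive fold change. Itgb1, the shared partner of the collagen, laminin and fibronectin receptors, had 550.1, 549.2 and 490 in Tg mice, against 403.1, 435 and 560.3 in wt mice, with wt 3 the highest array of all (0.19, SE 0.162, limma adjusted p = 0.735). Itgb4, the beta subunit of hemidesmosomes, was the 1 of 24 integrin genes whose Tg arrays were all above its wt arrays, with 146.2, 144.5 and 137.2 in Tg mice, against 90, 102.4 and 109.3 in wt mice (0.45, SE 0.277, limma adjusted p = 0.634), beside 5.21% of all genes. It was singled out after its values were seen. Itgam and Itgb2, which together form complement receptor 3 of microglia, were at -0.0042 (SE 0.275) and -0.15 (SE 0.253). Microglial markers summed to 15259, 15661 and 15018 in Tg mice and 16485, 17427 and 16028 in wt mice.

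The integrin rule also took in 5 genes that encode no alpha or beta chain of the standard receptors, of which 4 were above the filter. Itgb1bp1, a protein that binds the beta 1 tail, had 529.9, 724.8 and 630.2 in Tg mice, against 646.6, 786.9 and 836 in wt mice (-0.26, SE 0.155, limma adjusted p = 0.614). Itgb3bp, a centromere protein, Itgbl1, a secreted protein with integrin-like repeats, and Itgb2l, a gene related to Itgb2, were at 0.11, -0.14 and 0.47. A dimmer kept probeset of Itgb2l was at -1.16 (SE 0.499), with 61.4, 17.1 and 20.3 in Tg mice, against 75.4, 116.7 and 70.4 in wt mice. Itgb1bp2, the muscle protein melusin, was below the filter.

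Genes that act with these proteins were counted from lists of other matrix proteins, collagen processing enzymes, integrin adaptors and other matrix receptors. Of 36 measured other matrix proteins, 24 had a negative and 12 a positive fold change (median -0.24), with 5 lower and 1 higher at an unadjusted p under 0.05 and 0 called by limma. Of all genes, 55.9% had a negative fold change, and 4.97% were lower and 2.9% higher at that p. Dcn, decorin, a proteoglycan that coats collagen fibrils and is also one of the meningeal markers above, had 855.7, 998.9 and 1315.3 in Tg mice, against 1387.2, 2374.3 and 2268.4 in wt mice (-0.90, SE 0.200, adjusted p = 0.227 with limma, 0.0277 with Cyber-T). It was the only gene of the 4 lists that Cyber-T called. Reln, the reelin of Cajal-Retzius cells and interneurons, had 1659.6, 1899.8 and 2179.4 in Tg mice, against 2514.6, 2876.9 and 2631.4 in wt mice (-0.49, SE 0.112, limma adjusted p = 0.227). Mfap2, a microfibril protein, was at -0.71 (SE 0.195), and Sparc and Sparcl1, matricellular proteins of vessels and astrocytes, were at -0.31 (SE 0.126) and -0.27 (SE 0.106). Npnt, nephronectin, the ligand of Itga8, was on the higher side, with 530, 517.4 and 516.4 in Tg mice, against 340.1, 338.8 and 364.9 in wt mice (0.56, SE 0.147, limma adjusted p = 0.245), and it is also among the dentate gyrus markers above. In all of these but Sparc and Sparcl1 the groups did not overlap.

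Enzymes that make collagen and proteins that relay integrin signals had fold changes on both sides of 0. Of 22 collagen processing enzymes and chaperones, 9 had a positive and 13 a negative fold change (median -0.055), and 0 had an unadjusted limma p under 0.05. The brightest, Ppib and P4hb, which fold and hydroxylate collagen chains, were at 0.023 and -0.10. Of 28 integrin adaptors and adhesion kinases, 14 were on each side (median -0.0063). At an unadjusted p under 0.05 there were 3 lower, the adaptors Fermt2 and Tln1 and the kinase Fyn, at -0.22, -0.31 and -0.19, and 1 higher, the adaptor Bcar1, at 0.44, with limma adjusted p of at least 0.460. Of all genes, 4.97% were lower and 2.9% higher at that unadjusted p. Of 20 other matrix receptors, 8 were positive and 12 negative (median -0.069), and Cd44, a hyaluronan receptor, had 114.5, 221.2 and 114 in Tg mice, against 184.8, 301.1 and 392.2 in wt mice (-0.90, SE 0.317, limma adjusted p = 0.390), with Tg 2 above wt 1.

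The 14 genes below the filter, with no other probeset above it, were the collagens Col2a1, Col4a3, Col6a5, Col9a2, Col10a1, Col17a1 and Col24a1, the laminins Lama4 and Lamb3, and the integrin genes Itgal, Itgax, Itgb3, Itgb7 and Itgb1bp2. They were not tested in the main comparison. Lama4, the laminin alpha chain of vessel walls, was also singled out after its values were seen and had 15.2, 29.5 and 25.7 in Tg mice, against 32, 98.4 and 139.9 in wt mice, and its order within the wt mice was that of the mural cell markers. Of the 67 genes above the filter, 31 had more than 1 kept probeset, and in 17 of these the probesets disagreed in sign.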

How the data were processed

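The authors' deposited table holds 1 intensity per probeset and array, a MAS5 signal on a linear scale, from hippocampal RNA of 3 Tg and 3 wt mice. The study's own analysis used RMA values, which were not used here. Of 45101 probesets, 64 controls were set aside and the 31% with the lowest mean of log2(signal + 16) were dropped, leaving 31076. The filter is no limit on the linear mean, which a single bright array can raise in a dropped probeset. Probesets were named through the platform annotation (34945 had 1 gene, 932 several and 9160 none). Signals were compared as log2(signal + 16) with limma 3.58.1 in R 4.3.3 (lmFit, eBayes with an intensity trend, Benjamini-Hochberg adjustment over all kept probesets), and Cyber-T used a window of 101 probesets and confidence 10. Both were tested on simulated data, where Cyber-T called more unchanged probesets than its threshold allows and limma none. Each probeset was drawn there with its own SD from these few arrays, which is itself imprecise. The simulation therefore cannot rank the tests on the real data. Genes are given at their brightest probeset. The number of arrays limits the precision. Named genes were those with a probeset in the study's list, those its text names, the 10 matrix and 5 integrin genes with the smallest p, the 2 brightest of each structural group, matches that encode no subunit, and companion genes with an unadjusted p under 0.05 (or the 2 brightest of a list). The members, lists and this rule were chosen with earlier results of these data known. Alternatives were constants of 1 and 64, quantile normalization, centring, no filter or 50% left out, no trend, Cyber-T, a replicate block, a gene's mean over its probesets, and leaving out each array. Promoters are RefSeq windows. Figures were drawn with matplotlib 3.10.9.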

Additional observations from a re-analysis of the deposited data

How the results depend on the processing

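With 3 arrays a group, no named member was called by its adjusted p under any alternative (smallest 0.13 over 49 named members), and all scalings moved the median of the kept probesets by less than 0.1 on the log2 scale. The cause of each shift below was not tested. The median log2 fold change of collagens and laminins was -0.187 with centred arrays and -0.197 both with no filter and with the lowest 50% left out. That of integrin genes was -0.013 with the lowest 50% left out. The number of integrin genes at an unadjusted p under 0.05 was 1 with quantile normalization, with no filter, with the lowest 50% left out and with Cyber-T. Over all probesets, Cyber-T called 65, and leaving out single arrays gave 0 to 6 calls with limma. Without single arrays the median lay between -0.319 and -0.0928 for collagens and laminins and between 0.0449 and 0.24 for integrin genes, and the counts lay between 1 and 6 and between 1 and 4.

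The replicate number is only a name here, as deviations of same-numbered arrays correlated at -0.0159, 0.00779 and 0.0333. As a replicate block it gave 1 call over all probesets, left the counts at 4 and 2 and the medians at -0.121 and 0.137, and changed no member's call.

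Sign changes were confined to small or unsteady values. Col18a1 went to -0.00388 with a constant of 64, -0.0457 with quantile normalization and -0.0463 with centring, where Col19a1 was at -0.0177, Itgb8 at -0.00422 and Col3a1 at -0.0131. Col3a1 was at -0.172 with a constant of 64. With the mean of a gene's probesets, Col19a1 was at -0.0118, Col25a1 at 0.264, Col4a1 at 0.0635, Col4a5 at 0.0339, Itga1 at -0.126, Itga3 at 0.0742, Itga6 at 0.0345, Itgb2l at -0.349 and Lamc3 at -0.334. Leaving out single arrays gave ranges that cross 0 for 18 members. These were -0.0319 to 1.11 for Col15a1, -0.349 to 0.319 for Col18a1, -0.0152 to 0.125 for Col19a1, -1.19 to 0.711 for Col3a1, -0.131 to 0.0436 for Col4a1 and -0.931 to 0.169 for Col8a2. They were -0.31 to 0.476 for Itga1, -0.00908 to 0.41 for Itga2b, -0.218 to 0.122 for Itga3, -0.0666 to 0.0418 for Itga6, -0.155 to 0.172 for Itgam, -0.172 to 1.13 for Itgb2l, -0.0532 to 0.4 for Itgb3bp and -0.0865 to 0.259 for Itgb8. They were -0.27 to 0.0231 for Lama2, -0.38 to 0.113 for Lamb2, -0.324 to 0.0621 for Lamc1 and -0.069 to 0.314 for Lamc3.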
